A study of Homo sapiens with 6 samples.

Results

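The 4 HOX gene clusters of the human genome were examined in A2058, a melanoma cell line that was made to overexpress wild-type TET2. They were defined by 4 windows on the genome build hg19, chr7:27120000-27260000 (HOXA), chr17:46600000-46820000 (HOXB), chr12:54320000-54460000 (HOXC) and chr2:176930000-177070000 (HOXD), and the peaks that overlap a window are its regions. This rule took 503 of the 593594 peaks in 4 deposited lists: 117 of 191394 peaks of 5-hydroxymethylcytosine (5hmC) in high glucose, 132 of 210081 in normal glucose, 129 of 100234 peaks of 5-methylcytosine (5mC) in high glucose and 125 of 91885 in normal glucose. Flanks of 200 kb on each side of a window were used for comparison.

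The cells were grown for 7 days in high or normal glucose, at concentrations that the labels do not state. DNA fragments that carry 5hmC were pulled down with 1 antibody (hMeDIP-seq) and those that carry 5mC with another (MeDIP-seq), and both were sequenced. Each mark and glucose level had 1 library, so the 4 groups were 5hmC and 5mC in high and in normal glucose, and all of them came from TET2-overexpressing cells of 1 line. No cells without the TET2 construct are among the samples used here. Input libraries were not analysed here. With 1 library per group there is no replicate check and no p-value, and every difference below describes these libraries.

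HOX genes encode homeodomain transcription factors that give cells their position along the body axis. They lie in 4 clusters, and in each the genes are ordered as they are used along the axis, from the low-numbered anterior genes to the high-numbered posterior ones. The clusters are rich in CpG islands, are classical targets of Polycomb repression and are often methylated in cancer cells, and TET enzymes oxidise 5mC to 5hmC. In the RefSeq table on GRCh38.p14, used for names and order only, the 10 HOXA members run by coordinate from HOXA2 to HOXA13, next to EVX1, a homeobox gene that borders the posterior end. The 10 HOXB members run from HOXB1 to HOXB13. The 9 HOXC members run the other way, starting from HOXC13, and the 9 HOXD members run from HOXD13, next to EVX2, to HOXD1. HOXC4, HOXC5 and HOXC6 come last in HOXC, and the order among them was not determined here. Since these tables and the peak lists are on different builds, no region was assigned to a single gene.

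Both antibodies need modified cytosines, which in mammalian cells sit mainly in CpG, so promoters with few CpG offer them few targets. The RefSeq promoter table (GRCh38.p14) held 20 of the 38 members: 9 of HOXA, 8 of HOXD, 2 of HOXC and 1 of HOXB. Values over these members therefore describe mainly HOXA and HOXD. In the 250 bases before the gene start they had a median of 22 CpG (4 to 40), against 11 over 35116 promoters. HOXA13, a posterior gene of limb and genital development, had the most, 40, and 2.16% of all promoters held as many. HOXD4, an anterior HOXD gene, had the fewest, 4, a number that 70.7% of promoters reached. HOXD1 had 31, so promoters of the same cluster differed widely. These 3 are shown because they span that range. They are printed 5′ to 3′ on the gene's strand with every CG in capitals.
HOXA13: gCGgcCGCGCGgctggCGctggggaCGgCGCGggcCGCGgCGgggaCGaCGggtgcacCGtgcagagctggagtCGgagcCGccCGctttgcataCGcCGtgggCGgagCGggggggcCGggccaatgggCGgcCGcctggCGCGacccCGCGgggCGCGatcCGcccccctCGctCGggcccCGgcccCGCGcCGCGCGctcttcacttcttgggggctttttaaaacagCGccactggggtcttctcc
HOXD1: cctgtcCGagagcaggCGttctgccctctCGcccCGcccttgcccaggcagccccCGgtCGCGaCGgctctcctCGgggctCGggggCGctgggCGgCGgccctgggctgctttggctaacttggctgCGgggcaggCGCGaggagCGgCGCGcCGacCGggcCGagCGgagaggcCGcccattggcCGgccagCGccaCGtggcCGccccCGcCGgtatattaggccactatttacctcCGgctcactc
HOXD4: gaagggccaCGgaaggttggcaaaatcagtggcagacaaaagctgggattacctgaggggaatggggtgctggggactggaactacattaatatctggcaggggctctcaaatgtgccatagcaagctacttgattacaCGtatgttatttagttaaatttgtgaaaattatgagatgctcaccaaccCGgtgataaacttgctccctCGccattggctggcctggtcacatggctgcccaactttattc
CpG is rare in the HOXD4 sequence and dense in the HOXA13 one. The other HOXA promoters had 8 (HOXA2), 11 (HOXA11), 20 (HOXA9), 24 (HOXA10), 26 (HOXA3 and HOXA4), 27 (HOXA6) and 28 CpG (HOXA7). Those of HOXD had 16 (HOXD12), 21 (HOXD3 and HOXD13), 23 (HOXD10 and HOXD11) and 28 (HOXD8), while HOXB1 had 7 and HOXC4 and HOXC5 had 14 each. HOXC4 and HOXC5 also had the same GC content, 50.8%, and may be 1 promoter listed under both names. Whether CpG number accounts for the peak cover of the windows was not tested.

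5mC peaks were dense in all 4 windows. Cover, the percent of bases that lie in peak regions, was 26.0% in high and 25.5% in normal glucose over the 640 kb of the windows, against 2.79% and 2.61% in the flanks and 2.35% and 2.18% over chromosomes 1 to 22 and X. HOXA led with 39.8% in high and 39.9% in normal glucose. HOXD followed with 30.3% and 27.6%, then HOXC with 20.2% and 19.7%, and HOXB with 18.3% and 18.8%. The order of HOXB and HOXC rests on differences smaller than the error of counting some 30 regions in each. The genome was also cut into tiles of the same length as the windows. Of 19775 tiles of 140 kb that held a peak in any list, 0.339% had a high-glucose 5mC cover as high as HOXA, 0.850% as high as HOXD and 2.07% as high as HOXC, and the median tile had 0.741%. Of 12739 tiles of 220 kb, 2.26% reached the cover of HOXB.

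5hmC was enriched less, and unequally. Its cover was 11.8% in high and 13.4% in normal glucose over the 4 windows, 5.42% and 5.34% in the flanks and 3.79% and 4.11% over the genome. HOXA had 14.5% and 18.4%, HOXC 16.0% and 18.4% and HOXB 12% and 12.8%. HOXD stood apart with 4.40% and 4.27%, close to the genome-wide cover, and 30.5% of 140 kb tiles had as much in high glucose. HOXD therefore had 6.90 bases in 5mC regions for each base in 5hmC regions in high glucose and 6.46 in normal glucose. The ratio was 2.75 and 2.2 in HOXA, 1.52 and 1.47 in HOXB, 1.26 and 1.08 in HOXC, and 0.621 and 0.531 over the genome. The 4 windows thus held the marks in quite different proportions although they hold the same gene family.

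**Figure D1:**
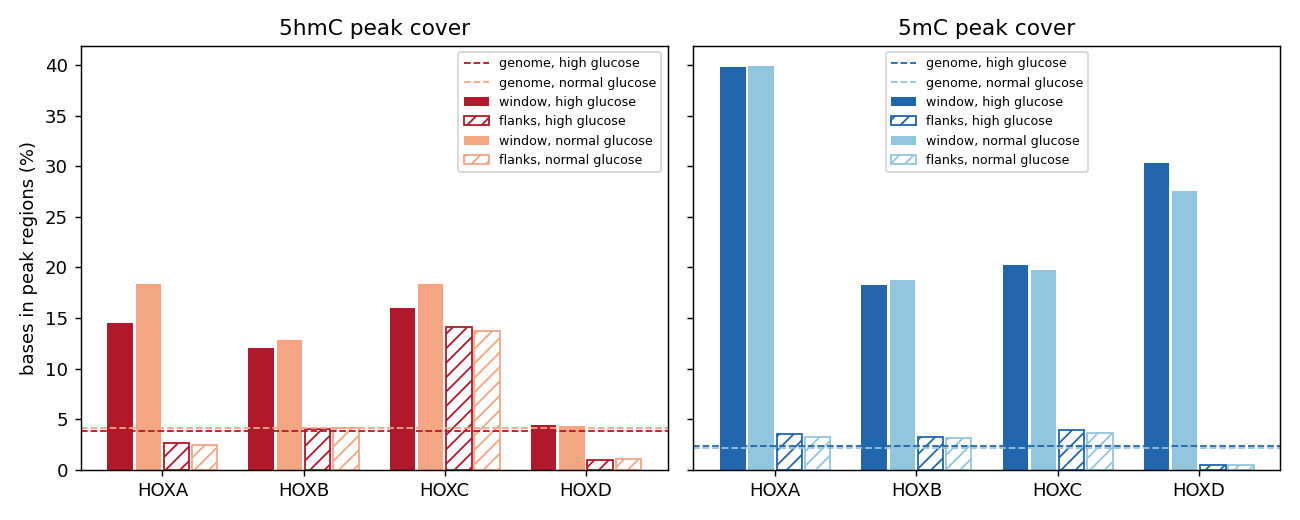
Percent of bases in 5hmC (left) and 5mC (right) peak regions, for each HOX window (filled bars), its 200 kb flanks on both sides (hatched bars) and the genome (dashed lines), in high and normal glucose, with 1 library per bar. 5mC cover of the windows runs from 18.3% to 39.9% and that of the flanks stays under 4%, while the 5hmC cover of HOXC, 16.0% and 18.4%, stands beside 14.1% and 13.7% in its flanks of this length and that of HOXD is near the genome line.

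The surroundings differed as much as the clusters. The HOXD flanks were nearly free of 5mC, with 0.446% in high and 0.506% in normal glucose, so that 5mC cover rose 68.1-fold and 54.4-fold from flank to window. In HOXA the ratio was 11.3 and 12.5, in HOXB 5.65 and 5.93, and in HOXC 5.10 and 5.51. The HOXC flanks were instead rich in 5hmC, with 14.1% and 13.7%, and the HOXC window exceeded them by 1.90 percentage points in high (counting interval -3.40 to 7.19) and 4.64 in normal glucose (-1.20 to 10.5). The 5hmC of these flanks lay mostly away from the window. In the bin just before the window it was at 4.18% in high and 5.53% in normal glucose. After the window it was not listed from 150 to 200 kb, and was at 24.1% and 26.1% in the bin from 200 kb. The excess of the window depended on the flank: against flanks of 100 kb it was 6.50 points (1.21 to 11.8) and 9.49 (3.65 to 15.3). These intervals leave out the counting error of the flanks, so they are too narrow. When peaks with a -log10 p below 10 were dropped, the difference in high glucose turned to -4.07 points, and in normal glucose it was 2.92. In the other 3 windows 5hmC cover was above that of the flanks in both lists, by 11.8 and 15.9 points in HOXA, 7.98 and 8.67 in HOXB and 3.47 and 3.22 in HOXD.

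The position of the marks within each cluster was read from bins of 10 kb. In HOXA, 5mC was listed in 14 of 14 bins at both glucose levels. Its cover was 12% in high and 11.8% in normal glucose from 50 to 60 kb after the start of the window, and was highest from 70 to 80 kb, at 84.3% and 81.4%, and from 80 to 90 kb, at 82.1% and 80.3%. 5mC ran on past the window for 4 more bins on the side where EVX1 follows HOXA13, with 16.9%, 19.3%, 27.6% and 24.3% in high glucose and 16.7%, 20.2%, 36.3% and 18% in normal glucose, and was not listed in the bin after them. 5hmC in HOXA peaked elsewhere, from 20 to 30 kb, with 31.1% in high and 41.2% in normal glucose. In the most 5mC-rich bin it covered 19.4% and 23.8%.

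In HOXB, 5mC was missing from a long stretch. From 10 to 20 kb it was at 3.24% in high glucose and not listed in normal glucose. Its cover was 47.3% and 47.4% from 70 to 80 kb and 45.2% and 43.9% from 90 to 100 kb, it was not listed at either level in the 6 bins from 130 to 190 kb, and it returned with 24.8% and 27.6% from 190 kb. The longest stretch without a region of any list, 18561 bp (chr17:46758748-46777308), lay in that gap. HOXB13, the posterior-most HOXB gene, is the last member by coordinate, after HOXB9. 5hmC was at 32.1% and 33.6% from 90 to 100 kb, before that gap, and at 10.3% and 12.1% from 200 to 210 kb, after it.

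In HOXC, 5mC was highest in a pair of bins that lie far apart. It reached 46.5% and 44.1% from 20 to 30 kb and 47.3% and 41.2% from 100 to 110 kb, and was not listed from 110 to 120 kb. 5hmC was highest between these places, from 70 to 80 kb, with 35.5% in high and 50.4% in normal glucose, where 5mC was at 8.77% and 13.1%. In HOXD, 5mC was listed in 14 of 14 bins, with the most from 90 to 100 kb (72.1% and 56.1%) and from 10 to 20 kb (54.7% and 41.5%), and was lowest, at 3.96% and 5.44% in the last bin, at the HOXD1 end. The 2 bins before the HOXD window, on the HOXD13 side, had no 5mC region in either list. Whether EVX2 lies inside the window or before it was not determined here. The highest 5hmC bin of HOXD reached 14.1% in high and 9.88% in normal glucose.

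Across the 64 bins of the 4 windows, cover in high and normal glucose correlated at a Pearson r of 0.973 for 5mC and 0.907 for 5hmC. Between the marks r was 0.309 in high and 0.387 in normal glucose. By cluster, r between the marks in high and normal glucose was 0.712 and 0.687 in HOXB (22 bins), 0.548 and 0.520 in HOXA, 0.211 and 0.319 in HOXD, and -0.253 and 0.0490 in HOXC (14 bins each). Neighbouring bins share regions, and bins of one list share a library, so these values are descriptions.

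**Figure D2:**
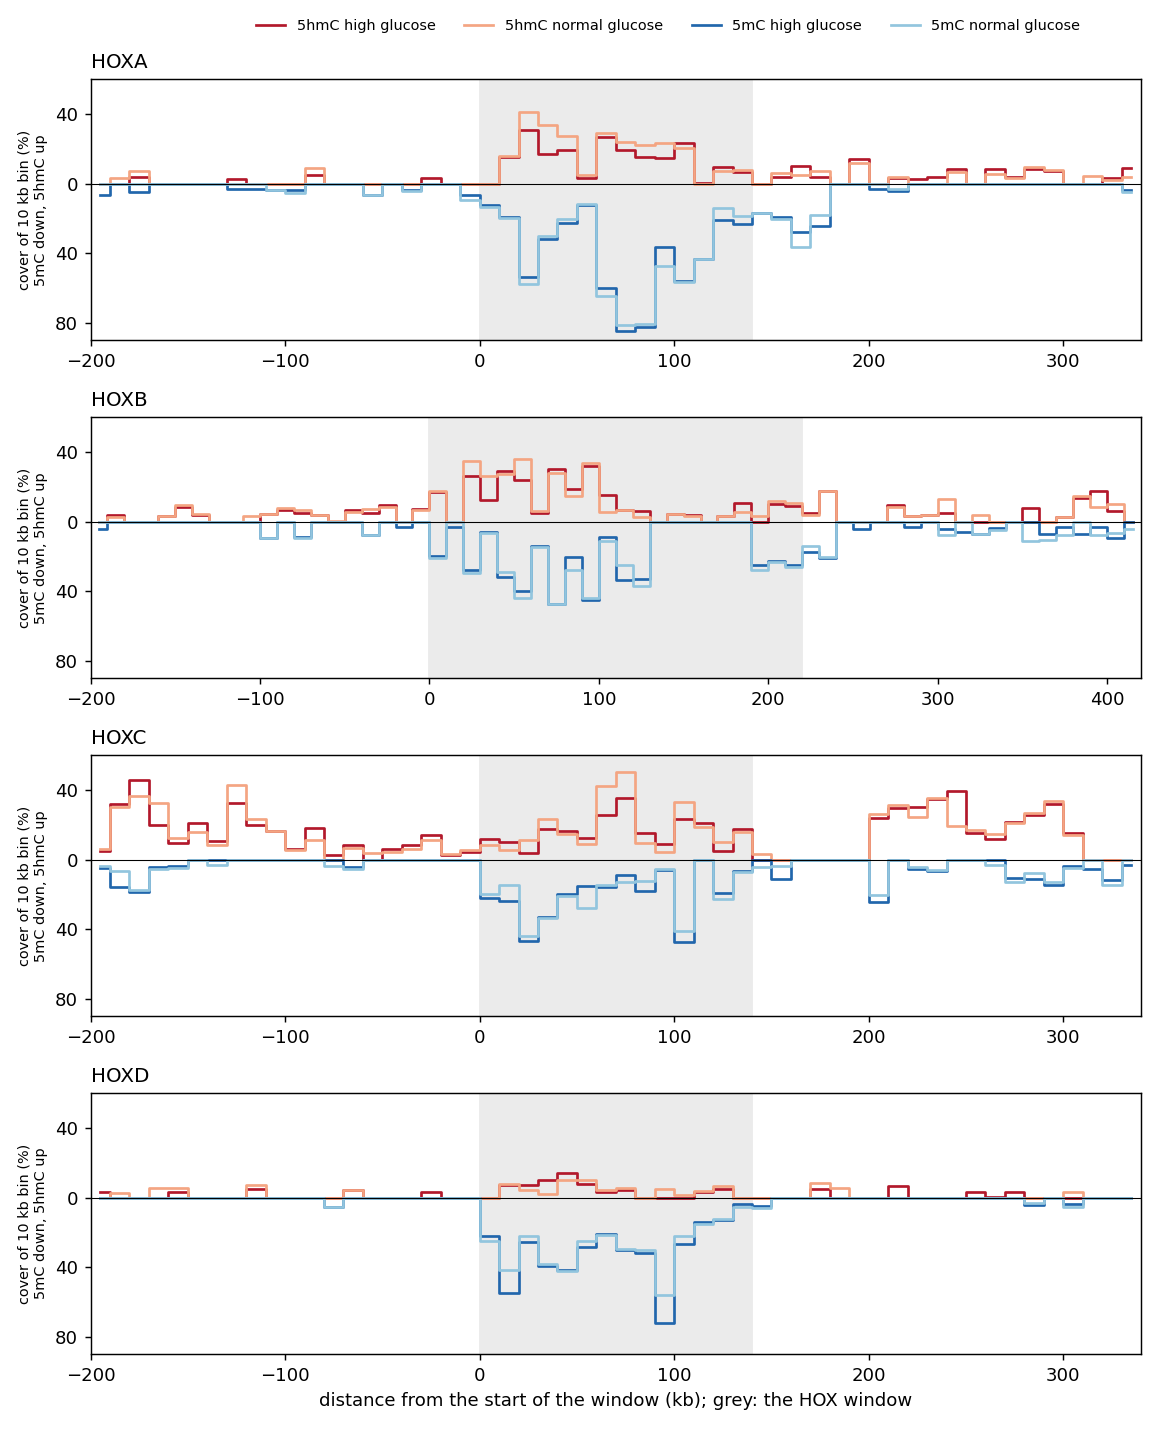
Cover of 10 kb bins along each HOX window (grey) and its 200 kb flanks, as the percent of bases in 5hmC regions (upward) and in 5mC regions (downward), against distance from the start of the window in kb, with 1 line per library. 5mC reaches 84.3% in HOXA, runs on for 40 kb past its end and is missing from 130 to 190 kb in HOXB. It also runs on past the end of HOXB. 5hmC stays at or under 14.1% in HOXD. In the HOXC flanks 5hmC is high away from the window, and it is not listed from 150 to 200 kb.

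The 5mC regions of the windows were wide and strong. Their median width was 962 bp in high and 1000 bp in normal glucose, against 500 and 507 bp over the whole lists, and 6.20% and 4.80% of them spanned 3000 bp or more, against 1.35% and 1.41%. Their median fold enrichment over background, as the authors' lists give it, was 17.8 and 18.1, against 6.58 and 6.70 over all regions. The 5hmC regions did not stand out in this way. Their median width was 520 and 460 bp against 464 and 443 bp, and their median fold, 4.26 and 4.08, was slightly below that of the lists, 4.47 and 4.34. So over the 4 windows together, 5hmC cover went with more and slightly wider regions, not with a higher median fold. By window, the median fold was above that of its list in HOXC in normal glucose, 4.76, and in HOXB in high glucose, 4.50. It was below that of the list in every other window and list. The fragments at a summit were recovered from its fold and its p-value. They numbered 10 to 54 (median 21.0) and 9 to 35 (18.5) for 5hmC, and 6 to 117 (35.0) and 5 to 110 (31.0) for 5mC, in high and normal glucose. The lowest expected count in a list, a measure of background, was 3.03 and 2.64 for 5hmC and 0.737 and 0.615 for 5mC.

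The widest 5mC region lay in HOXA at chr7:27202837-27209979 in high glucose, with a width of 7143 bp, and at chr7:27202743-27209905 in normal glucose, with 7163 bp. Its summit held 78 and 80 fragments where 1.36 and 1.22 were expected. The strongest 5mC region of HOXA was its neighbour, chr7:27194066-27200368 in high glucose, with a fold of 58.9 and 114 fragments. In normal glucose 2 regions were listed there, chr7:27194068-27195067 and chr7:27195485-27200349, the latter with a fold of 64.1, 110 fragments and rank 105 of its list. These places lie in the bins of highest 5mC cover. The next strongest in HOXA were chr7:27145940-27148584 (fold 41.2) and chr7:27149646-27150859 (42.4) in high glucose and chr7:27145702-27148611 (45.8) and chr7:27162942-27164356 (42.6) in normal glucose. Each of the 6 strongest 5mC regions of HOXA overlapped 5hmC at its own glucose level.

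In HOXB the strongest and widest 5mC region was chr17:46669240-46674726 in high glucose, 5487 bp wide with a fold of 58.8 and 117 fragments, and chr17:46669301-46674744 in normal glucose, 5444 bp wide with a fold of 43.4 and 103 fragments. It overlapped the widest high-glucose 5hmC region of the windows, chr17:46673017-46674822. The region chr17:46795834-46797725, after the gap, had a fold of 56.0 in high glucose and no 5hmC at either level. In HOXC the strongest 5mC region was chr12:54440502-54441799 in high glucose (fold 58.8, 111 fragments) and chr12:54440513-54441928 in normal glucose (53.8, 90 fragments), and neither overlapped 5hmC. The strongest HOXD region, chr2:177036110-177037850 in high glucose (49.5, 85 fragments) and chr2:177036137-177037413 in normal glucose (43.3, 69 fragments), did not either. The second of HOXD, chr2:176945477-176950728, was 5252 bp wide in high glucose. In normal glucose it was listed as chr2:176945475-176948776, 3302 bp wide, and chr2:176949909-176950778, 870 bp wide. Widths and counts of regions therefore also reflect how a list divides a stretch.

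Among the high-glucose 5hmC regions of the 4 windows, the strongest by p-value, at rank 7297 of its list, lay in HOXC at chr12:54349630-54350168, with a fold of 9.17 and 54 fragments where 5.00 were expected. The overlapping normal-glucose region, chr12:54349544-54350745, had a fold of 8.12 and 33 fragments. In HOXB it was chr17:46641122-46641626 in high glucose (fold 9.01, 40 fragments) and chr17:46653286-46653770 in normal glucose (8.12, 33 fragments). In HOXD it was chr2:176969835-176971405 (7.94, 31 fragments) and chr2:176970766-176971527 (9.62, 34 fragments), which also lay on the longest stretch of that window covered by all 4 lists. In HOXA the strongest were chr7:27193998-27194422 in high (6.64, 30 fragments) and chr7:27229382-27229920 in normal glucose (8.68, 33 fragments). The latter overlapped no 5mC region.

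**Figure D3:**
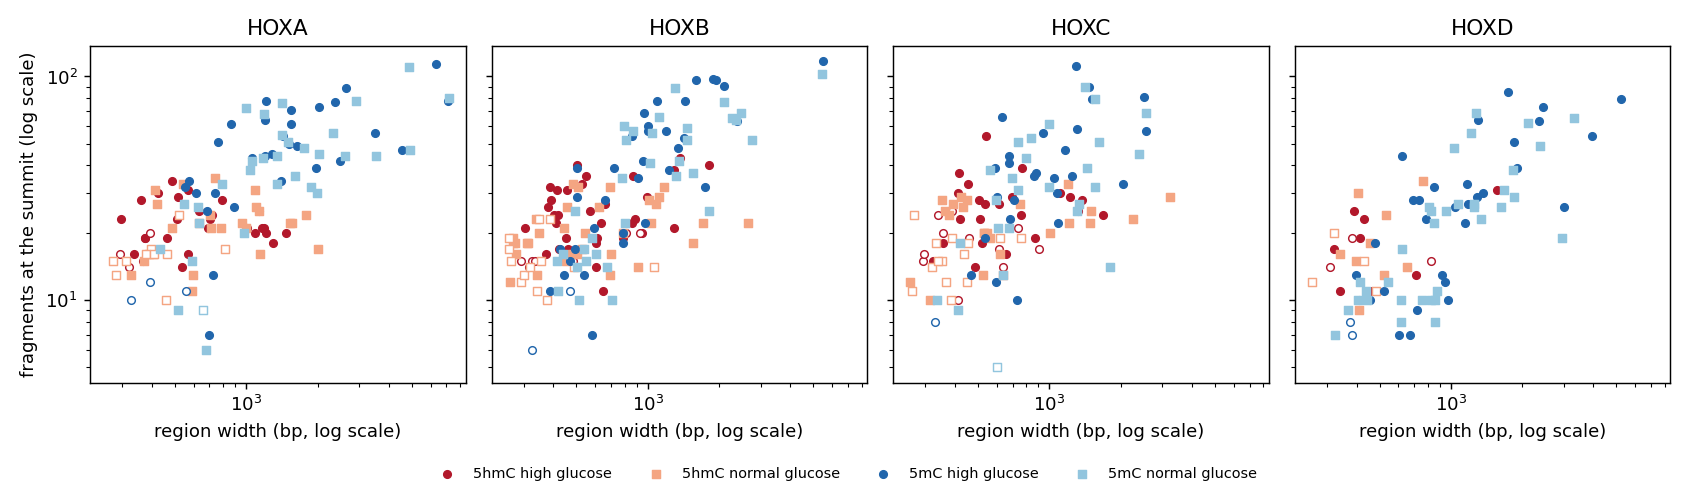
Fragments at the summit against region width for the 503 regions of the 4 HOX windows, both on log scales, by cluster and list; circles are high and squares normal glucose, and open symbols are regions listed at 1 glucose level. The 5mC regions reach 117 fragments and a width of 7163 bp, and the 5hmC regions 54 fragments. The open symbols have lower median width and fragments than the filled ones in each list. Those of 5hmC overlap the filled ones and reach a width of 1064 bp.

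5mC in the HOX windows was nearly the same set of regions at both glucose levels. Of the 129 regions of high glucose, 8 had no overlapping region in normal glucose, or 6.20%, against 28.3% over the whole list, and of the 125 of normal glucose 2 had none in high glucose, against 21.5%. The share found at both levels was 93.8% (Wilson 95% interval 88.2 to 96.8) and 98.4% (94.4 to 99.6). In the flanks it was 70.4% (59.0 to 79.8) and 74.6% (63.1 to 83.5). The windows' 5mC regions were also stronger than those of the lists, and the part of strength in these shares was not tested. The regions found at 1 level were weak, with a highest -log10 p of 10.8 in high and 8.40 in normal glucose against medians of 46.6 and 40.3 for the others. The strongest of the 8 was chr7:27250182-27250573 in HOXA, with 12 fragments and the nearest normal-glucose region 1668 bp away.

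5hmC was found again about as often as in the lists as a whole. Of the 117 high-glucose regions, 24 had no normal-glucose partner, which leaves 79.5% found at both levels (71.3 to 85.8), where 24.1% of the whole list had none. Of the 132 normal-glucose regions, 42 had none in high glucose, leaving 68.2% (59.8 to 75.5), where 31.2% of the list had none. Both are close to the background, and the flanks had 80.1% and 78.7% found at both levels. The share was lowest in HOXC, 68.6% (52.0 to 81.4) and 60.5% (44.7 to 74.4), and reached 86.7% (70.3 to 94.7) in the high-glucose list in HOXA, with intervals that overlap. Regions at 1 level were again weaker, with a median -log10 p of 5.87 in high and 6.34 in normal glucose against 10.5 and 10.3. The strongest were chr12:54417922-54418311 in HOXC for high glucose (25 fragments, 2329 bp from the nearest normal-glucose region) and chr17:46696321-46696706 in HOXB for normal glucose (23 fragments, 512 bp from the nearest high-glucose region).

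**Figure D4:**
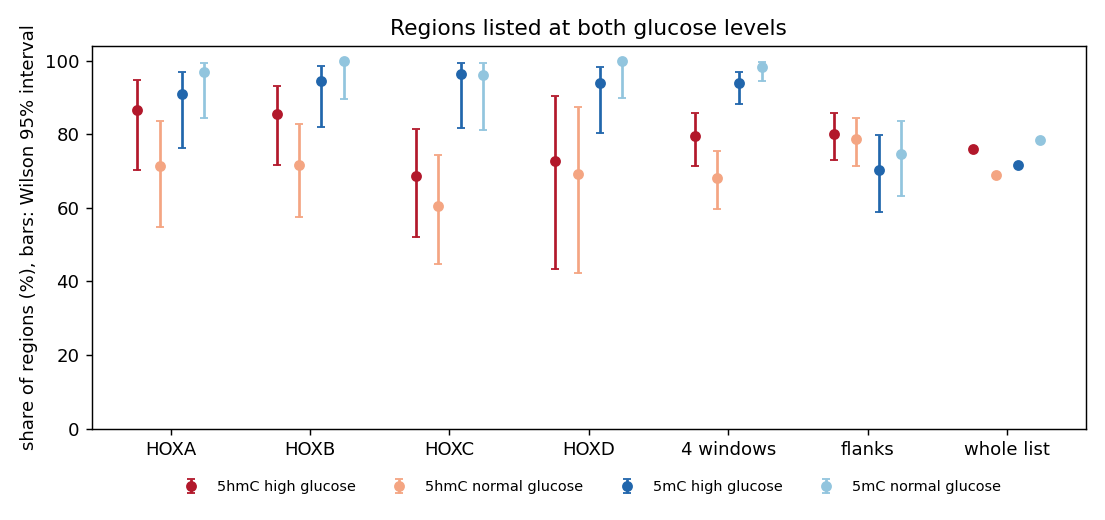
Share of regions of each list that overlap a region of the same mark at the other glucose level by at least 1 bp, by HOX window, for the 4 windows together, their flanks and the whole list, with Wilson 95% intervals that cover counting only. In the 4 windows the 5mC shares, 93.8% and 98.4%, lie above those of the flanks and lists, while the 5hmC shares are 79.5% in the windows and 80.1% in the flanks for high glucose, and 68.2% and 78.7% for normal glucose.

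The glucose levels differed little in total cover of the windows. 5mC cover was 0.523 percentage points higher in high glucose, with an interval of -5.82 to 6.87 from the number of regions, and the ratio of 1.02 compares with 1.08 over the genome. 5hmC cover differed by -1.62 points (-4.74 to 1.5), a ratio of 0.879 against 0.922 over the genome. By cluster the 5hmC difference was -3.90 points in HOXA (-11.9 to 4.10), -2.38 in HOXC (-10.3 to 5.50), -0.807 in HOXB (-6.02 to 4.41) and 0.134 in HOXD (-3.35 to 3.62), and without peaks under a -log10 p of 10 that of HOXB turned to 1.62. Each of these intervals includes 0. In single bins, 5hmC cover from 30 to 40 kb in HOXA was 17.3% in high and 33.8% in normal glucose, and from 60 to 70 kb in HOXC it was 25.6% and 42.5%. In HOXB it went the other way from 100 to 110 kb, with 15.6% and 5.70%. The largest 5mC difference was in HOXD from 90 to 100 kb, 72.1% and 56.1%, where the high-glucose region chr2:177026533-177030468 (3936 bp) faced chr2:177027439-177028063 and chr2:177028713-177030393 in normal glucose, the latter 2 with 17 and 31 fragments against 54. The background of the high-glucose library was also the larger of each pair, and its part in these differences was not tested.

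The marks met far more often in the windows than in the lists as a whole, when counted by 5hmC region. Of the high-glucose 5hmC regions, 58.1% (49.1 to 66.7) overlapped high-glucose 5mC, against 17.6% of the list, and in normal glucose 58.3% (49.8 to 66.4), against 18%. The flanks had 12.6% and 14%. The clusters differed: 27 of 30 and 29 of 35 in HOXA, 9 of 11 and 11 of 13 in HOXD, 25 of 41 and 22 of 46 in HOXB, and 7 of 35 and 15 of 38 in HOXC. Most of the few 5hmC regions of HOXD thus lay on 5mC. The windows hold more 5mC to meet, and counted from the 5mC side the picture was flatter. Of the 5mC regions, 46.5% (38.1 to 55.1) in high and 53.6% (44.9 to 62.1) in normal glucose overlapped 5hmC, against 32.2% and 39.7% of the lists, and these regions were also wider than those of the lists. By bases, 22.4% of the 5mC-covered sequence of the windows lay in 5hmC regions in high and 29.0% in normal glucose, slightly below the 25.2% and 32.0% of the genome. Outside 5mC, 7.99% and 8.01% of the window was covered by 5hmC, against 3.27% and 3.49% of the genome. In HOXC in high glucose, 5hmC covered 14.4% of the 5mC sequence and 16.4% of the rest. The normal-glucose values there were 32.4% and 14.9%.

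**Figure D5:**
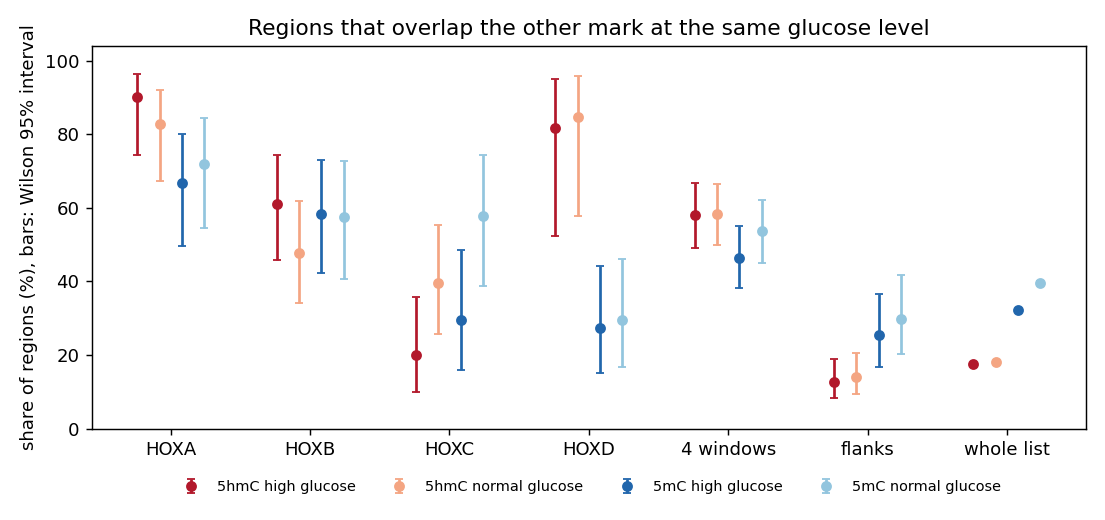
Share of regions of each list that overlap a region of the other mark at the same glucose level, by HOX window, for the 4 windows together, their flanks and the whole list, with Wilson 95% intervals that cover counting only. In HOXD 81.8% and 84.6% of 5hmC regions lie on 5mC but 27.3% and 29.4% of 5mC regions on 5hmC; in HOXC the normal-glucose values are the higher of each pair.

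HOXC was the window where the overlap differed most between the glucose levels. Of its 5mC regions, 8 of 27 overlapped 5hmC in high glucose, 29.6% (15.9 to 48.5), and 15 of 26 in normal glucose, 57.7% (38.9 to 74.5), and the intervals overlap. By bases, 5hmC covered 14.4% of the 5mC sequence in high and 32.4% in normal glucose, while in HOXA it was 26.3% and 32.9%, in HOXB 34.3% and 37.6% and in HOXD 11.6% and 11.7%. The difference went with the 5hmC list. The 27 high-glucose 5mC regions met normal-glucose 5hmC at 14 places, or 51.9%, and the 26 of normal glucose met high-glucose 5hmC at 9, or 34.6%. Over the whole 5mC lists these shares were 37.2% and 33.4%, against 32.2% and 39.7% at the same glucose level. The whole lists thus shifted in the same direction, by less, and the 34.6% is close to its list. Of the 27, 7 overlapped 5hmC of normal glucose alone and 1 of high glucose alone, where 9.37% and 4.34% of the whole list did so. In the other windows these counts were 4 and 2 (HOXA), 2 and 4 (HOXB) and 2 and 1 (HOXD).

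The HOXC places with 5hmC on 5mC in normal glucose alone were spread along the window. The strongest 5mC region among them was chr12:54445670-54446301, with a fold of 36.7 in the high-glucose list and a normal-glucose counterpart, chr12:54445548-54446384, of 31.1. Others were chr12:54338623-54339869, chr12:54343415-54344017, chr12:54368846-54369935, chr12:54396378-54397254, chr12:54420519-54421116 and chr12:54422204-54422887. At chr12:54396378-54397254 the widest 5hmC region of the windows was listed in normal glucose, chr12:54394836-54398064 (3229 bp, 29 fragments). In high glucose the same stretch held chr12:54394882-54396102 and chr12:54397348-54398111, with 29 and 39 fragments, and the 5mC region lay in the gap between them. These fragments belong to summits on either side of the gap, and the signal within it was not measured here. At the other 6 of the 7 places the normal-glucose 5hmC region, with 10 to 19 fragments at its summit, overlapped no high-glucose 5hmC region. With the same number of strongest peaks from each list the HOXC shares were 29.6% and 42.3%, and without peaks under a -log10 p of 10 they were 16.7% and 30.4%. Under a required overlap of 50% on each side they were 14.8% and 19.2%.

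Stretches covered by regions of all 4 lists made up 7.88% of HOXA in 22 stretches, 4.74% of HOXB in 21, 2.11% of HOXC in 6 and 1.84% of HOXD in 7. The longest were chr7:27224362-27225838 in HOXA (1477 bp), chr12:54359419-54360697 in HOXC (1279 bp), chr17:46673645-46674726 in HOXB (1082 bp) and chr2:176970766-176971405 in HOXD (640 bp). The next in HOXA were chr7:27142393-27143514 and chr7:27190809-27191816. Sequence in no region of any list made up 51.9% of HOXA, 61.5% of HOXC, 66.6% of HOXD and 72.1% of HOXB, whose window includes the gap in 5mC. The longest such stretch besides that of HOXB was chr2:177054950-177065797 in HOXD, 10848 bp toward HOXD1, followed by chr7:27171462-27178691 in HOXA (7230 bp) and chr12:54411538-54417723 in HOXC (6186 bp). HOXA, the window with the most 5mC, thus also had the largest share of its length in regions of all 4 lists.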

How the data were processed

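Peak lists of 4 immunoprecipitated libraries were used. Per the submitters' processing notes the build was hg19 and the tools included bedtools 2.17.0, SAMtools 0.1.18, Bowtie 1.0.0 and CASAVA 1.8.2, without roles. No source used here names the peak caller or its control. For each peak the authors' deposited lists give a fold enrichment (a ratio), a -log10 p-value and a -log10 q-value, which reaches a q-value of 0.0498 at most. The deposited display score was not used. The lists reach position 249240465 on chromosome 1.

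Groups were taken from the sample titles. Only chromosomes 1 to 22 and X were used, and coordinates are printed 1-based. An overlap of 1 bp or more counted as shared. Wilson intervals (SciPy 1.17.1) cover counting error only. The interval of a cover difference between glucose levels treats the number of regions in each list as a Poisson count. That of a window minus its flanks counts the window's regions only. It takes the flank cover as exact and is therefore too narrow. Summit fragments t and expected fragments L were found from fold = (t + 1)/(L + 1) and a Poisson p-value. This worked for all 503 regions, within 1% of the step between whole counts. The steps were tested on data simulated with the same formulas, which cannot show whether the peak caller used them. Genome cover is over the span up to the last listed peak of each chromosome, and gaps were not removed. Python 3.11.15, NumPy 2.4.6, pandas 2.3.3 and matplotlib 3.10.9 were used. Named regions are, per window and list, the 3 strongest, the 3 strongest at 1 glucose level, the widest, the 5 longest stretches of all 4 lists and the longest of none, of which the most telling are printed; the HOXC places of 5mC with 5hmC at 1 level, and the HOXD regions from 90 to 100 kb, were added after their values were seen. The windows, members and settings were chosen with earlier results of these data known.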

Additional observations from a re-analysis of the deposited data

How the results depend on the processing

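The values were recomputed without peaks under a -log10 p of 10, without those under a -log10 q of 2, with equal numbers of the strongest peaks of each mark, after joining peaks up to 500 bp apart, under a required overlap of 50% on each side, and with flanks of 100 kb. Without peaks under a -log10 p of 10, the excess of 5hmC cover in the windows over the flanks fell to 2.16 points in high and 3.71 in normal glucose, from 6.33 and 8.03. The share of high-glucose 5hmC regions found at both levels was then 68.5%, and the share of 5mC regions with 5hmC 23.6% in high and 28.4% in normal glucose. At that threshold 3 values of single windows turned: HOXB 5hmC, high minus normal, to 1.62 points, HOXC 5hmC over its flanks in high glucose to -4.07, and HOXA 5mC, high minus normal, from -0.0343 to 0.151. With 50% overlap, the share found at both levels was 64.1% and 56.8% for 5hmC in high and normal glucose and 92.8% for 5mC in normal glucose, and 12.4% and 20.8% of 5mC regions held 5hmC. The cause was not tested. Another 48 recomputed values for the 4 windows together stayed within the counting interval, and 6 for single windows moved without turning. No paired analysis was possible because each group has 1 library and no replicate numbers.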
